A study of Mus musculus with 12 samples.

Results

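The genes of prostaglandin synthesis and response were examined in murine hip cartilage before and after mechanical injury. They were 10 genes chosen by symbol: Pla2g4a, Ptgs1, Ptgs2, Ptges, Ptges2, Ptges3, Ptgis, Ptger2, Ptger4 and Hpgd. The array carried 15 probes for them among its 45281 probes, and 9 of the 15, for 7 of the 10 genes, were in the authors' normalized table of 21004 probes and 15424 genes. The other 6 probes were in the table of bead signals only.

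RNA came from the femoral head cartilage of C57BL6 mice aged 4 to 6 weeks per the labels, and was measured on 12 arrays. The 4 groups were wildtype (WT) control, WT injured, Mapk9 knockout (KO) control and Mapk9 KO injured, with 3 arrays each. Mapk9 encodes the stress-activated kinase JNK2, and the labels give the KO no further detail of its allele. Injury was the avulsion of the femoral epiphysis from the hip of a freshly culled mouse. Control cartilage had the same avulsion and was snap-frozen, and injured cartilage was kept for 4 h in medium without serum, so injury and culture cannot be told apart. Each replicate pooled 6 hips of 3 mice, per the methods, which name no genotype and do not mention the KO arrays.

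Prostaglandins are lipid mediators made from arachidonic acid, which phospholipase A2 enzymes such as the cytosolic enzyme of Pla2g4a release from membranes. The cyclooxygenases encoded by Ptgs1 (COX-1, present in most tissues) and Ptgs2 (COX-2, an inducible form) convert it to prostaglandin H2, and terminal synthases then make prostaglandin E2 (Ptges, Ptges2, Ptges3) or prostacyclin (Ptgis). Prostaglandin E2 acts on cell surface receptors that include EP2 (Ptger2) and EP4 (Ptger4), and the dehydrogenase of Hpgd begins its breakdown. In cartilage, prostaglandin E2 is known as a mediator of the response to inflammatory cytokines.

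A probe was taken as detected on an array where its deposited detection p-value, the share of negative control probes that were brighter, was under 0.05. Between 16930 and 18969 probes were detected on each array. Array medians lay between 7.55 and 7.70 on the log2 scale of the normalized values, and correlations between arrays lay between 0.868 and 0.986. The targeted gene was lower in KO cartilage: a Mapk9 probe detected on all 12 arrays differed by -1.57 (log2, KO minus WT) in control cartilage (limma, adjusted p = 0.0151) and by -1.57 in injured cartilage (adjusted p = 0.00485). A second Mapk9 probe was detected on 4 of the WT arrays and on 0 KO arrays.

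The label of the tissue was set against marker lists, with a change called at a fold above 2 and an adjusted p under 0.05. Of 11 chondrocyte markers, 9 were in the normalized table and all 9 were detected on all 12 arrays, among them Acan, Col2a1 and Sox9. Their mean log2 level was 10.56 to 11.34 on WT control, 12.31 to 12.58 on WT injured, 10.59 to 11.28 on KO control and 12.33 to 12.56 on KO injured arrays. The RNA of other tissues moved with injury too. Skeletal muscle markers had mean log2 levels of 11.12 to 12.67 on WT control, 8.14 to 10.31 on WT injured, 12.78 to 13.14 on KO control and 8.70 to 9.96 on KO injured arrays. Of the 10, 9 fell in WT and 10 in KO. Of 5 adipocyte markers in the normalized table, 2 fell in WT and 4 in KO.

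Marrow and blood cell markers were also present. Of 9 macrophage markers, 7 fell in WT and 8 in KO, while Cd14 rose in both. Their mean log2 level was 8.60 to 8.87 on WT control, 7.61 to 8.18 on WT injured, 8.65 to 8.86 on KO control and 7.33 to 7.53 on KO injured arrays. Of 8 neutrophil markers, all detected on all 12 arrays, 5 rose on at least 1 probe in each genotype. At each marker's brightest probe, Elane, Ngp and Retnlg were called in both genotypes and the other markers in neither. The median change of the 8 at that probe was 0.72 in WT and 0.20 in KO. Their mean level was 12.54 to 13.21 on WT control, 13.75 to 13.99 on WT injured, 12.93 to 13.32 on KO control and 13.48 to 13.94 on KO injured arrays. In bulk tissue, fewer cells of a type and less RNA per cell cannot be told apart, and the part of these cells in the values below was not tested.

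Each injury effect was tested between 3 control and 3 injured arrays. Of the 7 prostaglandin genes in the normalized table, 2 rose in WT (Ptges and Ptger2) and 2 rose in KO (Ptges and Ptgs1), which is 28.6% of the 7 in each genotype, and 0 fell. Over all 15424 genes, 8.36% rose and 8.25% fell in WT, and 10.6% rose and 10.4% fell in KO. The probe of Ptger2 and one of the Ptges probes were detected on injured arrays alone, so the members' count is a description. With an array left out, the count was 1 or 2 in each genotype. With 3 arrays a side, the smallest two-sided p of an exact permutation test is 0.1.

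**Figure D1:**
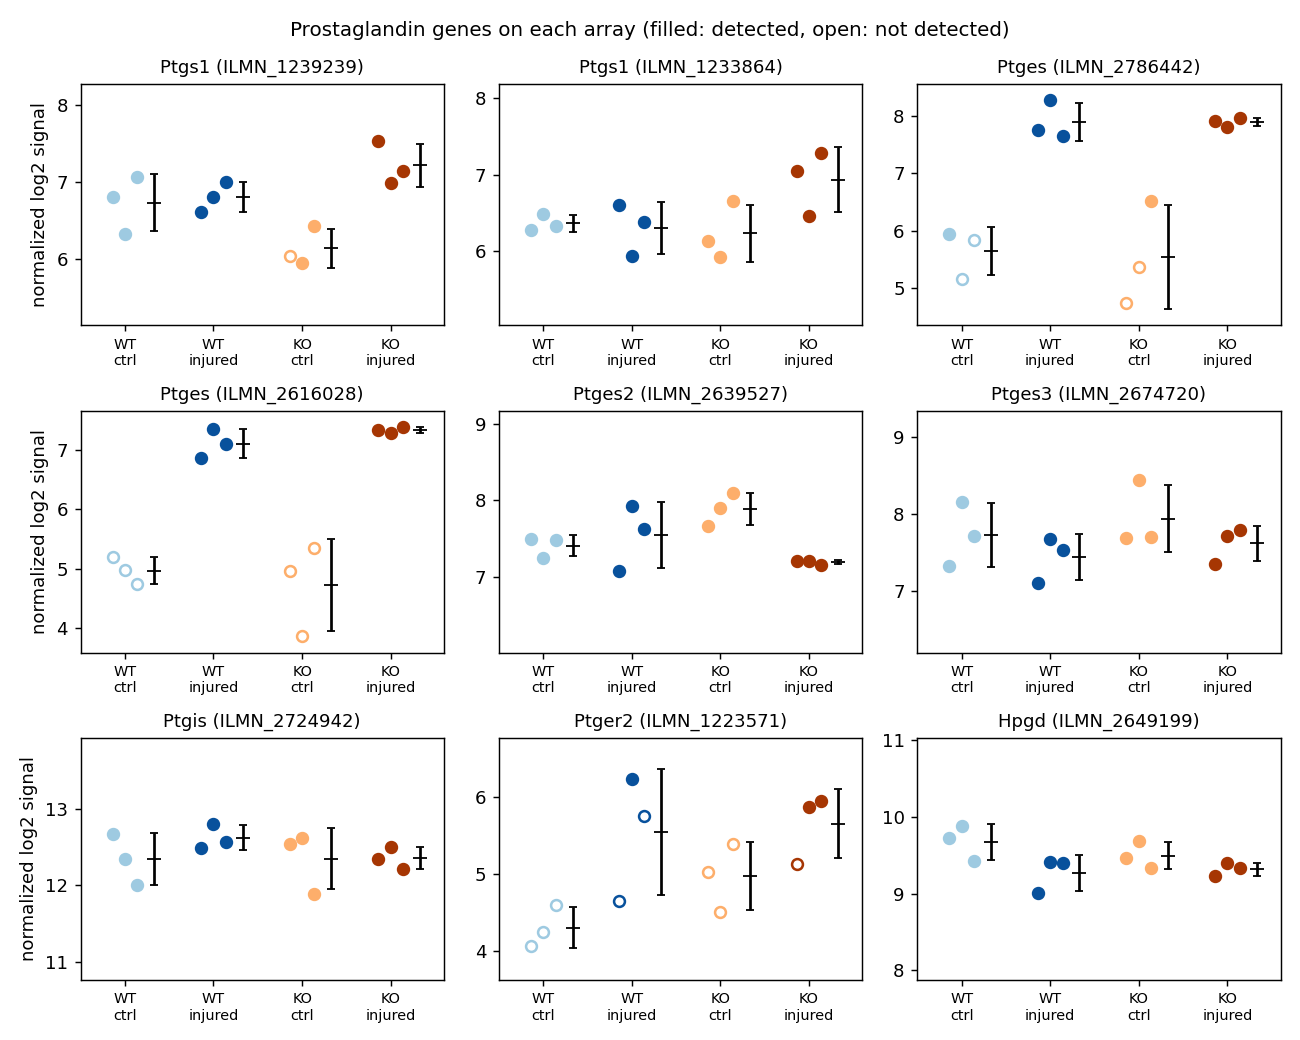
Normalized log2 signal (vertical axes) of the 9 prostaglandin probes of the normalized table on each of the 12 arrays, by group, with filled points where the probe was detected and open points where it was not. Black marks give the mean and SD of 3 arrays, and both Ptges probes lie higher on every injured array than on every control array of the same genotype.

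The phospholipase gene Pla2g4a was not above background on any array. Its probe had detection p-values of 0.497 to 0.996, and its bead signal was 0.523 to 0.752 times the lowest signal of a detected probe on the same array. The WT injured arrays lay above the WT control arrays within that range, and the KO groups overlapped. With the bead signals of all 45281 probes background-corrected and normalized anew with neqc, the probe changed by 0.09 in WT (limma, adjusted p = 0.579) and by 0.04 in KO (adjusted p = 0.868) on the log2 scale. At background a change in RNA may not show in the signal, so these values do not bound the change of the transcript.

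Other phospholipase A2 genes were measured above background. Of 19 further genes of the family and the inhibitor Anxa1, 9 were in the normalized table, of which 1 rose and 2 fell in WT and 1 rose and 1 fell in KO. Pla2g10, a secreted phospholipase, was detected on 0 of the 6 control arrays and on all 6 injured arrays, and was at least 1.18-fold higher after injury in WT (adjusted p = 0.00583) and at least 1.33-fold higher in KO (adjusted p = 0.000183). Here and below, a p-value beside such a bound tests the fitted difference of the deposited log2 values, and not the bound. Pla2g12a, another secreted phospholipase, has 3 probes in the table. They fell in KO, 2 of them by 1.17 and 1.25. The last was detected on 1 of 3 KO injured arrays and was 5.48-fold lower there with undetected arrays set to the detection limit. In WT that probe fell by 1.82 (adjusted p = 0.000971) and the others changed by -0.56 and -0.89 without passing the threshold. Pla2g7, the secreted enzyme that breaks down platelet-activating factor and is known from macrophages, was detected on 3 of 3 WT control and 0 of 3 WT injured arrays and was at least 1.36-fold lower in WT (adjusted p = 0.0012). In KO it changed by -0.35 (adjusted p = 0.639).

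Ptgs2, the inducible cyclooxygenase, was not above background on any array either. The first of its probes (ILMN_1231600) had a signal, relative to the lowest of a detected probe, of 0.742, 0.755 and 0.616 on WT control, 0.721, 0.722 and 0.745 on WT injured, 0.728, 0.724 and 0.662 on KO control, and 0.711, 0.840 and 0.876 on KO injured arrays. The highest pair of these values came from KO injured cartilage, and the groups overlapped in both genotypes. The second probe (ILMN_2717913) lay between 0.526 and 0.747 with all groups overlapping. After neqc the first probe changed by -0.05 in WT (limma, adjusted p = 0.811) and by 0.27 in KO (adjusted p = 0.199), and the second by -0.01 in WT (95% interval -0.19 to 0.18) and by -0.02 in KO (-0.19 to 0.15). The 4 h point alone was measured, so earlier and later levels are not known from these arrays.

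**Figure D2:**
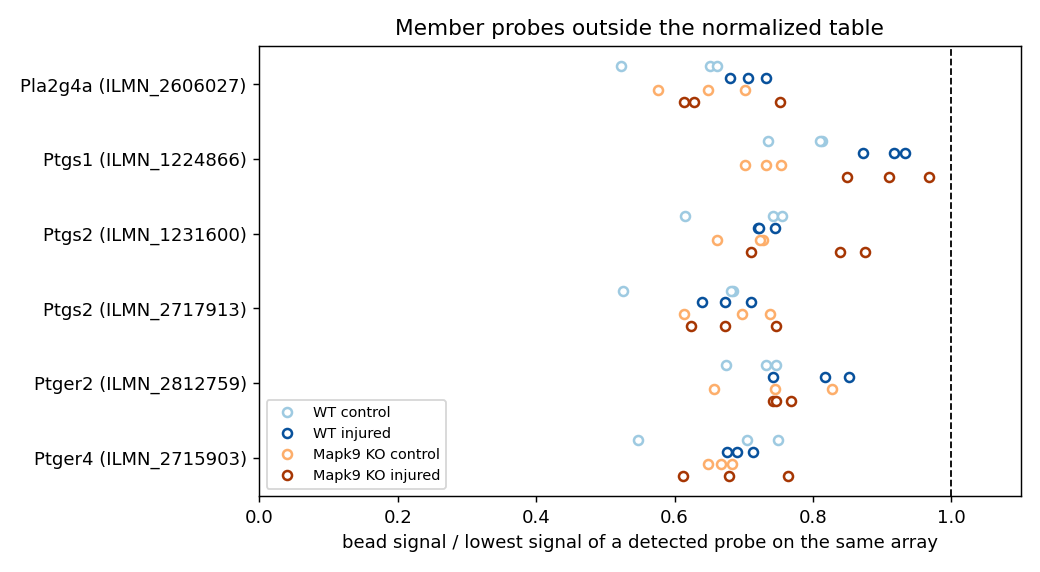
Bead signal of the 6 prostaglandin probes outside the normalized table, divided by the lowest signal of a detected probe on the same array (horizontal axis), with 1 point per array coloured by group. All points lie left of the dashed line at 1, from 0.523 for Pla2g4a to 0.968 for the Ptgs1 probe ILMN_1224866.

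Ptgs1, the constitutive cyclooxygenase, was measured by a pair of probes in the table that gave different calls after injury. Their sequences are shown because they report separate stretches of the transcript, starting at bases 1405 and 1256 of the probes' source transcript in the deposited table.
ILMN_1239239: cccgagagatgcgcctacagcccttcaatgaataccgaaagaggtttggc
ILMN_1233864: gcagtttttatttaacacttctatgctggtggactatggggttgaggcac
The first probe (ILMN_1239239) read 6.81, 6.33 and 7.06 (log2) on WT control and 6.61, 6.80 and 7.00 on WT injured arrays. The ranges overlapped, and the change was 0.07 (SE 0.24, limma adjusted p = 0.861). In KO it read 6.04, 5.94 and 6.42 on control and 7.53, 6.98 and 7.15 on injured arrays. Every KO injured array lay above every KO control array, and the probe rose by 1.08 (SE 0.21, 2.12-fold, adjusted p = 0.00199), with 1 of the 3 KO control arrays just under detection.

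The second Ptgs1 probe (ILMN_1233864) read 6.28, 6.49 and 6.32 on WT control and 6.60, 5.94 and 6.39 on WT injured arrays, and its change there was -0.06 (adjusted p = 0.883). In KO it read 6.13, 5.93 and 6.65 on control and 7.05, 6.47 and 7.28 on injured arrays. The KO ranges overlapped, and the change was 0.70 (95% interval 0.13 to 1.26, adjusted p = 0.0524). Another Ptgs1 probe (ILMN_1224866), outside the table, lay at 0.702 to 0.754 of the detection limit on KO control and 0.849 to 0.968 on KO injured arrays, and changed after neqc by 0.53 in KO (limma, adjusted p = 0.0383, below the fold limit) and by 0.35 in WT (adjusted p = 0.189), where it lay at 0.736 to 0.813 on control and 0.873 to 0.933 on injured arrays. All 3 probes had positive values in KO, and 1 of them passed the threshold. The probe outside the table was detected on 0 arrays and was positive in WT too, so its values do not bound a change.

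Ptgs1 is also the cyclooxygenase of platelets. Of 6 platelet and megakaryocyte markers in the table, all detected on all 12 arrays, 0 rose and 0 fell in either genotype by limma, with an unadjusted p under 0.05 for 3 in WT and 0 in KO (Pf4 was not among the 6), a limit that 37.1% of all probes passed in WT and 46.8% in KO. Their mean log2 level was 9.76 to 10.25 on WT control, 10.40 to 10.60 on WT injured, 9.96 to 10.21 on KO control and 9.76 to 10.33 on KO injured arrays. The WT ranges were separate and the KO ranges overlapped. In WT, Gp1bb changed by 0.96 (limma, adjusted p = 0.00749) and Gp9 by 0.71 (adjusted p = 0.0262), both short of the fold limit. The other markers in WT, and all 6 in KO, had an adjusted p above 0.05. The part of platelet RNA in the Ptgs1 values was not tested. Without KO control replicate 2 the first probe changed by 0.99, and without KO injured replicate 1 by 0.93, both below the fold limit (adjusted p = 0.0118 and 0.00923). With quantile normalization and no background correction it changed by 0.54, also below that limit (adjusted p = 0.00201).

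Ptges, which encodes the inducible microsomal prostaglandin E synthase, had the largest rise in both genotypes among the 7 prostaglandin genes in the normalized table. Its first probe (ILMN_2786442) read 5.94, 5.16 and 5.84 on WT control and 7.76, 8.28 and 7.65 on WT injured arrays. The groups were separate by more than a log2 unit, and the change was 2.25 (SE 0.27, 4.76-fold, limma adjusted p = 0.000283). In KO the probe read 4.73, 5.36 and 6.52 on control and 7.91, 7.80 and 7.95 on injured arrays. The KO control arrays were the most spread of the 4 groups (SD 0.91 against 0.08 for KO injured), and the change was 2.35 (SE 0.36, 5.10-fold, adjusted p = 0.000478). The probe was detected on 1 of 3 control arrays of each genotype and on all 6 injured arrays. With undetected control arrays set to the detection limit the folds were 3.84 in WT and 3.39 in KO. With quantile normalization and no background correction in place of the deposited normalization, the log2 change was 1.12 in WT and 1.13 in KO, both still past the threshold.

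The second Ptges probe (ILMN_2616028) showed the same direction. It read 5.19, 4.98 and 4.74 on WT control, 6.87, 7.35 and 7.11 on WT injured, 4.97, 3.86 and 5.36 on KO control and 7.34, 7.29 and 7.39 on KO injured arrays. All injured values lay above all control values. No control array of either genotype detected it, so the rise is a bound: at least 2.40-fold in WT (adjusted p = 0.000119) and at least 2.65-fold in KO (adjusted p = 0.000101), against the lowest level of a detected probe on each control array. These bounds hold for the deposited normalization. With quantile normalization and no background correction the WT change was 0.84 on the log2 scale, below the fold limit, and the call was lost. Chondrocyte markers rose over the same arrays, 6 of the 9 in the table in WT (and 1 fell) and 7 in KO, and neutrophil markers moved as given above. Their part in the rise of Ptges was not tested.

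The window upstream of Ptges is shown because both probes of the gene passed the threshold in both genotypes. It holds the 250 bases before the RefSeq gene start at chr2:30903298-30903547 (GRCm38.p6, minus strand, 5′ to 3′), with GC boxes (GGGCGG) in capitals.
Ptges: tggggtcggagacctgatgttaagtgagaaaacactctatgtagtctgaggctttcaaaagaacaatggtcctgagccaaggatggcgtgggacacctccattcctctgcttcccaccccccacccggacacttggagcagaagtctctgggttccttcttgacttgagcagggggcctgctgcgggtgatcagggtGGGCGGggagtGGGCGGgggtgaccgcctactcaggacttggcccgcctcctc
The capitals begin 53 and 42 bases before the gene start. Motifs were searched on both strands in the 250 bases before each gene start: GGGCGG, the E-box CACGTG, the AP-1 site TGANTCA, the cAMP response element TGACGTCA, its shorter core CGTCA (which lies within the full element) and the NF-kB motif GGGANTTTC. GGGCGG was in the windows of 5 of the 9 prostaglandin genes with an entry (Ptges, Ptges3, Ptgs2, Ptger4 and Hpgd) and in 32.7% of all 32851 windows. CACGTG was in the Ptges2 window and in 6.02% of all windows. The remaining letters were in none of the members' windows, against 6.75% of all windows for TGANTCA, 1.55% for TGACGTCA, 17.8% for CGTCA and 0.94% for GGGANTTTC. These are matches of letters, and no binding was measured.

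Ptges2 and Ptges3 encode the other prostaglandin E synthases. Ptges2, a membrane-associated enzyme, read 7.50, 7.25 and 7.49 on WT control and 7.08, 7.93 and 7.63 on WT injured arrays, with overlapping ranges and a change of 0.14 (95% interval -0.41 to 0.68, adjusted p = 0.73). In KO it read 7.67, 7.89 and 8.10 on control and 7.21, 7.20 and 7.16 on injured arrays. The KO groups were separate and the difference was -0.70 (SE 0.18, limma adjusted p = 0.00954), which is 1.62-fold lower and short of the fold limit. Ptges3, the cytosolic synthase that is also the HSP90 co-chaperone p23, read 7.32, 8.15 and 7.72 on WT control, 7.10, 7.68 and 7.53 on WT injured, 7.68, 8.44 and 7.70 on KO control and 7.35, 7.71 and 7.79 on KO injured arrays. The groups overlapped in both genotypes, with changes of -0.29 in WT (adjusted p = 0.454) and -0.32 in KO (adjusted p = 0.315).

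**Figure D3:**
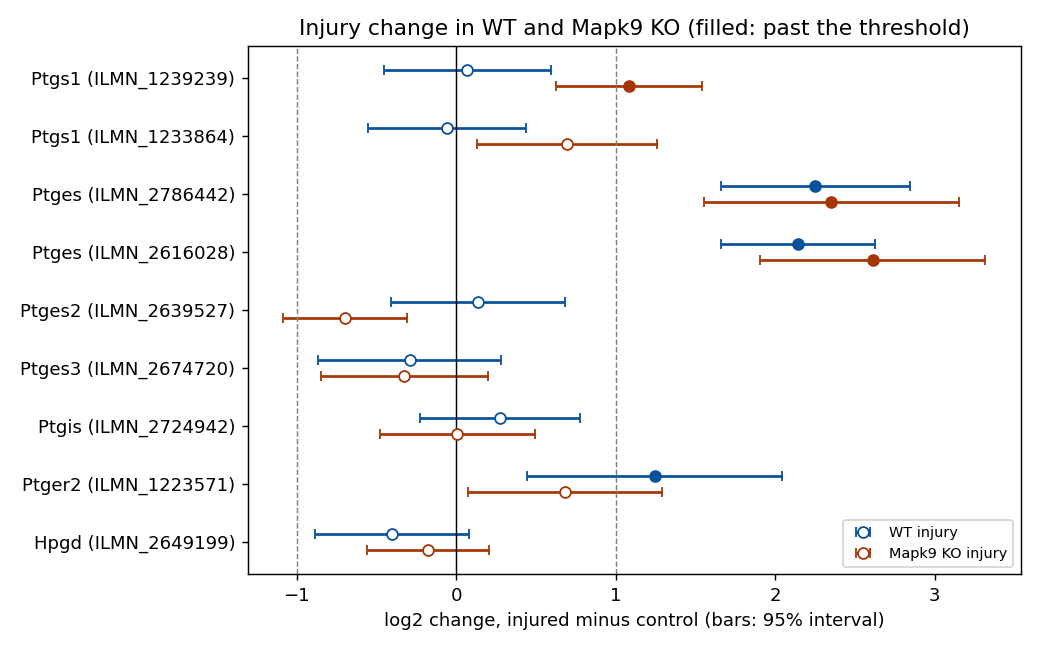
Log2 change after injury (injured minus control, horizontal axis) of the 9 prostaglandin probes in WT (blue) and Mapk9 KO (brown), with 95% intervals from limma, filled where the change passed the threshold and with dashed lines at a fold of 2. The points of both Ptges probes lie between 2.14 and 2.61 in both genotypes, while the first Ptgs1 probe lies at 0.07 in WT and 1.08 in KO. The control values of Ptger2 and of the lower Ptges probe were not above background, so their points are fitted differences and not measured folds.

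Ptgis, the prostacyclin synthase, was detected on all 12 arrays. It read 12.67, 12.35 and 12.01 on WT control, 12.49, 12.80 and 12.57 on WT injured, 12.55, 12.61 and 11.89 on KO control and 12.34, 12.50 and 12.22 on KO injured arrays. The groups overlapped, and the changes were 0.28 in WT (95% interval -0.22 to 0.78, adjusted p = 0.413) and 0.01 in KO (-0.48 to 0.49, adjusted p = 0.985). Both intervals end below a change of 1 log2 unit.

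Of 9 other prostanoid synthases, 7 were in the normalized table, and 0 rose in either genotype, while 3 fell in WT and 1 in KO. Cbr3, a carbonyl reductase that can act on prostaglandin E2, fell by 1.26 in WT (adjusted p = 0.00244) and by 1.19 in KO (adjusted p = 0.00163) at its brightest probe. Hpgds, the hematopoietic prostaglandin D synthase of mast cells and macrophages, was detected on 3 of 3 WT control and 0 of 3 WT injured arrays and was at least 1.53-fold lower in WT (adjusted p = 0.00258). In KO it was detected on 1 of 3 arrays of each group, with a change of -0.31 (adjusted p = 0.334). Tbxas1, the thromboxane synthase, was called in WT on 1 of its 3 probes, at least 1.36-fold lower (adjusted p = 0.00694), while the other probes changed by 0.43 and 0.45 without passing. The macrophage markers fell on the same arrays, as given above, and of 6 mast cell markers 4 were in the table, of which 1 rose and 1 fell in WT and 3 fell in KO, among them Tpsb2, which was detected on no array.

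The prostaglandin E2 receptors were near or at background. Ptger2 (EP2, which raises cyclic AMP) read 4.07, 4.24 and 4.60 on WT control, 4.65, 6.24 and 5.75 on WT injured, 5.02, 4.50 and 5.38 on KO control and 5.13, 5.87 and 5.95 on KO injured arrays. The WT groups were separate by a narrow margin and the KO groups overlapped. The probe was detected on 0 of 6 control arrays, 1 of 3 WT injured and 2 of 3 KO injured arrays. The means in WT were 4.30 ± 0.27 (SD, n = 3) on control and 5.55 ± 0.81 on injured arrays (limma, adjusted p = 0.029), and in KO 4.97 ± 0.44 and 5.65 ± 0.45 (adjusted p = 0.0741). No fold is given, because the injured means lay under the detection limit of the control arrays. The WT call was lost without WT control replicate 1 (adjusted p = 0.101), WT injured replicate 2 (0.107) or WT injured replicate 3 (0.0895), and after neqc (0.0911), with quantile normalization and no background correction (0.0992) and by the methods' t-test (0.187).

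The second Ptger2 probe was outside the table at 0.657 to 0.852 of the detection limit, and after neqc it changed by 0.16 in WT (adjusted p = 0.456) and by -0.02 in KO (adjusted p = 0.942). Ptger4 (EP4) lay at 0.547 to 0.765 of the limit over the 12 arrays, with changes of -0.05 (adjusted p = 0.805) and 0.04 (adjusted p = 0.852). Of 7 other prostanoid receptors, 2 were in the normalized table. Ptgir, the prostacyclin receptor, was detected on all 12 arrays and rose by 1.24 in WT (SE 0.23, adjusted p = 0.00388) and by 1.33 in KO (SE 0.17, adjusted p = 0.000124). The other, the thromboxane receptor Tbxa2r, did not pass in either.

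Hpgd, which inactivates prostaglandins, was detected on all 12 arrays. It read 9.72, 9.88 and 9.42 on WT control, 9.003, 9.41 and 9.40 on WT injured, 9.47, 9.68 and 9.34 on KO control and 9.23, 9.40 and 9.33 on KO injured arrays. The WT groups were separate by a narrow margin and the KO groups overlapped. The differences were -0.40 in WT (95% interval -0.88 to 0.08, adjusted p = 0.207) and -0.18 in KO (-0.56 to 0.20, adjusted p = 0.459). Groups were separate for 41.2% of all probes in WT and 49.7% in KO. All 6 further genes of prostaglandin transport and breakdown were in the table, and 1 was called: Ptgr3, a prostaglandin reductase listed as Zadh2, fell by 1.12 in WT (adjusted p = 0.00314), and its difference in KO was -0.68 (adjusted p = 0.00901, short of the fold limit).

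The leukotriene branch uses the same arachidonic acid. Of its 14 listed genes, 7 were in the normalized table, of which 2 rose in WT, 3 rose in KO and 0 fell in either. Alox5ap, the protein that presents arachidonic acid to 5-lipoxygenase, rose on both probes, by 1.80 and 2.18 in WT and by 1.47 and 2.08 in KO. Ltb4r1, the high-affinity leukotriene B4 receptor, rose by 2.02 in WT (SE 0.31, adjusted p = 0.00136) and by 1.36 in KO (SE 0.23, adjusted p = 0.000829). Alox5, the 5-lipoxygenase, rose by 1.06 in KO at its brightest probe (adjusted p = 0.00292) and changed there by 0.95 in WT (adjusted p = 0.00852), short of the fold limit. Its other probes did not pass in either genotype. These genes are known from neutrophils. The neutrophil markers had higher mean levels on every injured array than on every control array of the same genotype, as did the chondrocyte markers. The part of either cell type in these rises was not tested.

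**Figure D4:**
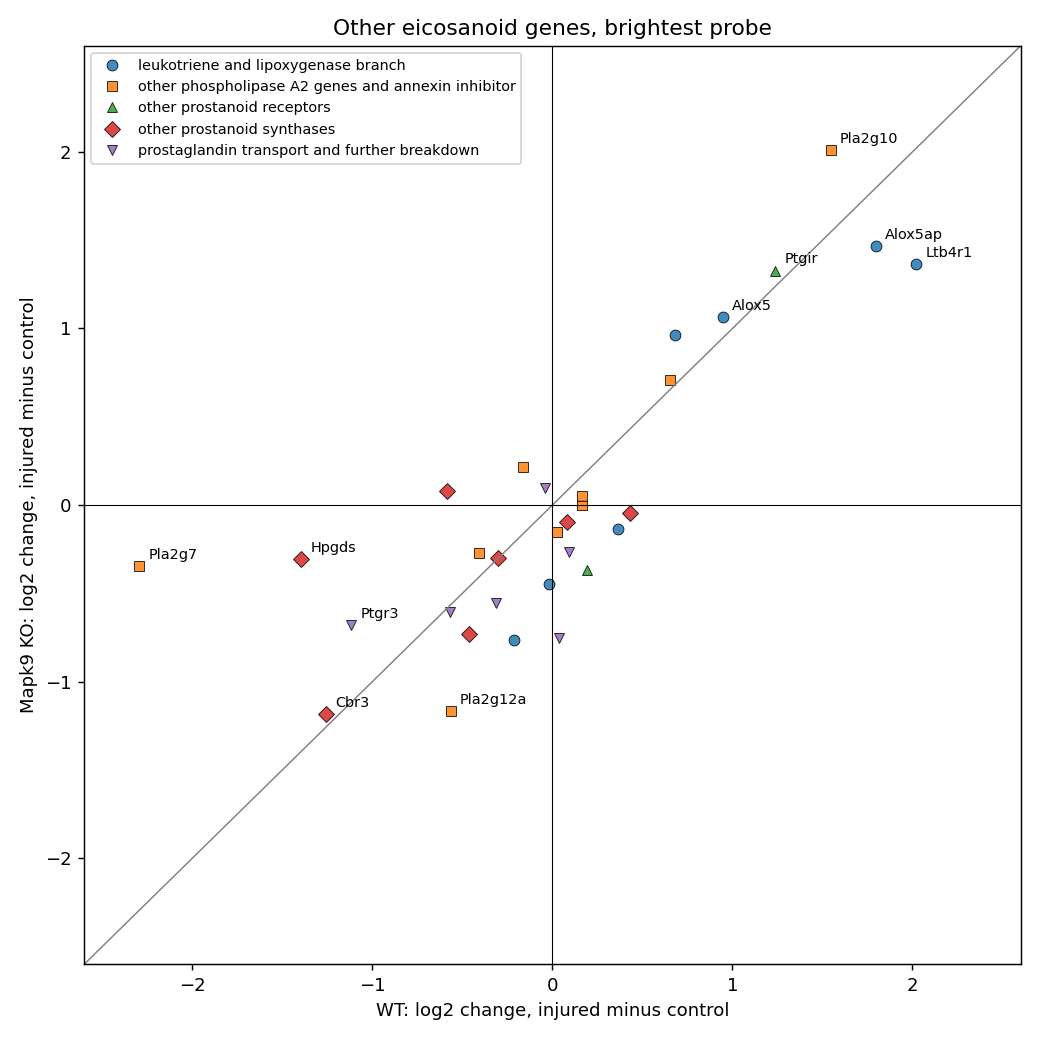
Log2 change after injury (injured minus control) at the brightest probe of the 31 other eicosanoid genes in the normalized table, WT on the horizontal and Mapk9 KO on the vertical axis, with the line of equal change, marker shapes by gene list and names for genes called at that probe in either genotype. Pla2g10, Alox5ap, Ltb4r1 and Ptgir lie in the upper right, Cbr3 in the lower left, and Pla2g7 and Hpgds to the left. Pla2g10 on control arrays, and Pla2g7 and Hpgds on WT injured arrays, were not above background, so their points are fitted differences and not measured folds.

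Over these 31 other eicosanoid genes, of 56 listed, 4 rose and 6 fell in WT, and 5 rose and 2 fell in KO. Over all 15424 genes, 8.36% rose and 8.25% fell in WT, and 10.6% rose and 10.4% fell in KO. These shares apply to the counts of the single lists too. The calls of Pla2g10, and the WT calls of Pla2g7, Hpgds and Tbxas1, rest on undetected arrays, with bounds under a fold of 2. The median change of the 31 genes at the brightest probe was 0.03 in WT and -0.15 in KO, beside medians over all probes of -0.02 in both genotypes. The WT and KO comparisons have no arrays in common.

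The difference between the injury effects of the genotypes was tested over all 12 arrays. No prostaglandin gene was called, nor was any of the 15424 genes (0%, limma adjusted p under 0.05). Still, 2088 probes (9.94% of all) had an unadjusted p under 0.05. With replicate number as a block, the fit called 112 probes and 0 prostaglandin genes. The largest differences among the members were those of the first Ptgs1 probe (1.01, SE 0.32, unadjusted p = 0.00649, adjusted p = 0.338) and of Ptges2 (-0.83, SE 0.30, unadjusted p = 0.0141, adjusted p = 0.382). Over the alternative limma fits, the lowest adjusted p was 0.107 for that Ptgs1 probe and 0.143 for Ptges2. The second Ptgs1 probe differed by 0.75 (adjusted p = 0.505). For the first Ptges probe the fitted difference was 0.10 (95% interval -0.98 to 1.18). It rests on control arrays of which 1 of 3 in each genotype detected the probe, and none is given for the second probe, whose control values were all at background.

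Between genotypes, 0 prostaglandin genes passed in control cartilage, where 0.149% of all genes did, and 0 passed in injured cartilage, where 0.201% did. The calls over all probes depended on single arrays and on the replicate block. In control cartilage they went from 25 to 412 without WT control replicate 3, and in injured cartilage from 38 to 154 without WT injured replicate 1, to 64 without KO injured replicate 2 and to 188 with the block, with 0 members called each time. In control cartilage 3 of the 9 probes had an unadjusted p under 0.05, as did 6.46% of all probes: the first Ptgs1 probe was at 6.73 ± 0.37 (SD, n = 3) in WT and 6.14 ± 0.25 in KO (adjusted p = 0.724), Ptges2 at 7.41 ± 0.14 and 7.89 ± 0.21 (adjusted p = 0.763), and Ptger2 at 4.30 ± 0.27 and 4.97 ± 0.44 (adjusted p = 0.712), where neither group was above background. In injured cartilage 1 of the 9 did, beside 12.6% of all probes: the second Ptgs1 probe, at 6.31 ± 0.34 in WT and 6.93 ± 0.42 in KO (adjusted p = 0.346). The injured levels of the first Ptges probe were 7.89 ± 0.33 in WT and 7.89 ± 0.08 in KO (95% interval of the difference -0.44 to 0.43). The median difference of the skeletal muscle markers between KO and WT control cartilage was 1.16 (0 of 10 called). It was 0.94 for adipocyte and 0.65 for mast cell markers (0 called), and -0.09 to 0.32 for the other marker lists. The part of the RNA of these cells in the values was not tested.

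The genes whose levels ran most like the first Ptges probe over the 12 arrays, among 11666 genes with a brightest probe detected on all 6 injured arrays, were 3100002M17Rik (Pearson r 0.981, Spearman rho 0.944), Niban (0.974 and 0.895) and Tec (0.973 and 0.888). The arrays fall into control and injured sets, and with group means subtracted r was 0.947, 0.804 and 0.776. The Ptges probe was detected on 1 of 3 control arrays of each genotype, so both sets of values rest in part on signal near background. The same search was not made for Ptgs2, which has no probe in the normalized table.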

How the data were processed

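Illumina mouse BeadChips were hybridized with RNA from 12 samples of femoral head cartilage. The authors deposited bead signal intensities of 45281 probes, not background-corrected or normalized, each with a deposited detection p-value that moves in steps of 1/936. For the normalized table, the authors used negative control probes for background, then vsn, and deposited log2 values of 21004 probes. The version of vsn is not given in the sources used here. Depth has no meaning for arrays, and their number limits the precision.

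Samples were grouped by their labels. Symbols were matched without regard to case, and the Ptges3 probe, listed as Tebp in the normalized table, was matched by its probe ID. All probes of a gene are shown, a gene was called when 1 of its probes was, and the brightest probe by mean log2 stood for a gene elsewhere. Each comparison was fitted on its own 6 arrays with limma 3.58.1 (lmFit, eBayes) in R 4.3.3, and the interaction on all 12, with p-values adjusted by Benjamini-Hochberg over the 21004 probes. A call needed a fold above 2 and an adjusted p under 0.05, and for the interaction the adjusted p alone. The scripts were tested on simulated data. The smallest detected signal of each array was its detection limit. A bound sets each undetected array of the dimmer group to that limit, or to its own value if higher. The bounds themselves were not tested. Sequences came from the deposited table and from RefSeq promoter windows (GRCm38.p6), which held 9 of the 10 genes. Probe coordinates were not used because no build is named for them.

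The members, lists and tests were chosen with earlier results of these data known. Genes named are the members, Mapk9, called genes of the other eicosanoid lists (up to 12 by size), the 3 genes most like Ptges, and markers. Marker names and Tbxa2r were added after their values were seen.

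Samples share replicate numbers. Their deviations from group means correlated at 0.153 to 0.390 over the 18 pairs with the same number (median 0.249) and at -0.289 to 0.0825 over 36 other pairs. The numbers were therefore taken as pairing the samples, and fits with the number as a block were run beside the main fits, which leave it out. Other alternatives were neqc (offset 16), quantile normalization without background correction, median centring, all arrays in 1 fit, a filter that kept probes with detection on 3 or more arrays, the label code as a block, the brightest probe alone, other thresholds, the methods' t-test and each array left out. The neqc fit of probes outside the normalized table was added after the data were seen. Nothing says that the pools are of separate days or litters, so p-values measure the spread between these samples.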

Additional observations from a re-analysis of the deposited data

How the results depend on the processing

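Counts of called prostaglandin genes moved by 1 at most. In WT the count of 2 became 1 (Ptges alone) at an adjusted p under 0.01, with neqc, with quantile normalization without background correction and with the methods' t-test, and was 1 to 2 with an array left out. In KO the count of 2 became 1 with quantile normalization without background correction, was 3 with no fold limit (adding Ptges2), and was 1 to 2 with an array left out. The replicate block left the counts at 2 in WT, 2 in KO and 0 for the interaction, and changed no call of a member. The interaction and both genotype comparisons gave 0 members in every alternative. With quantile normalization in place of vsn and no background correction, the first Ptgs1 probe changed by 0.54 in KO and the second Ptges probe by 0.84 in WT, both below the fold limit, while the first Ptges probe changed by 1.12 in WT and 1.13 in KO and the second by 1.00 in KO, and calls over all probes went from 3086 to 1140 in WT and from 3934 to 1756 in KO. The cause was not tested. Without WT control replicate 3 the interaction called 242 probes.

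Of 414 values of single members under the alternatives, 386 kept direction and call, 10 lost the call and 18 changed sign, 0 of them called. The second Ptgs1 probe in WT was 0.035 with neqc and 0.017 with quantile normalization without background correction, and the first Ptges probe's interaction was -0.00038 with neqc. With an array left out, WT changes ranged from -0.13 to 0.23 (first Ptgs1 probe), -0.20 to 0.13 (second) and -0.056 to 0.37 (Ptges2), the KO change of Ptgis from -0.22 to 0.14, and the interaction from -0.30 to 0.59 (first Ptges probe) and -0.24 to 0.22 (Ptges3). Signals at background limit what can be said of Pla2g4a, Ptgs2, Ptger2 and Ptger4.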
